A study of Mus musculus with 9 samples.

Results

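Small nuclear RNA (snRNA) genes held 66 of the 23623 ZEB1 consensus peaks measured in a mouse breast cancer line. A peak was taken as an snRNA peak when its interval lay within 1 kb of a gene of biotype snRNA in the GRCm38 gene table, and the 66 peaks lay near 61 of the table's 1004 such genes. The peaks were thus selected on signal, since consensus peaks are regions called over an IgG library in at least 1 group: the presence of a peak, its width and its fold over IgG describe how the peaks were chosen and are not results. Of the 66 peaks 61 had enough counts to be tested.

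The cells were PB3, whose labels give them as negative for Er, Pr and Her2. CUT&RUN, which recovers DNA cut beside an antibody's target by a tethered nuclease, was done with an antibody against ZEB1, a zinc-finger repressor of epithelial genes that binds E-box motifs. Of the 8 ZEB1 libraries 2 came from untreated cells, whose cell line is labelled PB3-Parental. The other 6, labelled PB3_ERI, came from cells held in 300 nM eribulin, a microtubule inhibitor, with 2 libraries at each of 24, 48 and 72 h. A further library used IgG and has no counts in the table. The labels name no vehicle for the controls and do not say whether the libraries of a group are separate cultures, so the p-values speak only for these libraries, whose spread may be technical. The libraries held between 326944 and 765015 counts in consensus peaks, and the library pairs of a group differed by about as much as counting error gives (chi-square per degree of freedom 0.931 to 1.06).

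Small nuclear RNAs are short, abundant non-coding RNAs. U1 pairs with the 5′ splice site, U2 with the branch point, U4 and U6 enter the spliceosome paired with each other, and U5 holds the exons; U11 and U12 take the places of U1 and U2 in the minor spliceosome. U7 acts in the 3′ end processing of histone mRNA, U3 in ribosomal RNA processing in the nucleolus, and 7SK holds the elongation factor P-TEFb inactive. Most of these genes are transcribed by RNA polymerase II, and U6 and 7SK by RNA polymerase III. Both kinds of promoter share a distal element that often holds the octamer ATGCAAAT and a proximal element bound by SNAPc, and in the polymerase III kind a TATA box is added.

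Promoter sequence from RefSeq (GRCm38.p6) was at hand for genes that share a peak with an snRNA gene, and 4 windows are shown because they place these motifs beside 3 peaks that were called lower and beside a U6-length gene that was not called. Each is the 250 bases before the start of the named gene, read 5′ to 3′ on that gene's strand. Capitals mark ATGCAAAT, TATAAA (read as TTTATA on the strand shown) or CAGGTA (read as TACCTG).
Alyref2: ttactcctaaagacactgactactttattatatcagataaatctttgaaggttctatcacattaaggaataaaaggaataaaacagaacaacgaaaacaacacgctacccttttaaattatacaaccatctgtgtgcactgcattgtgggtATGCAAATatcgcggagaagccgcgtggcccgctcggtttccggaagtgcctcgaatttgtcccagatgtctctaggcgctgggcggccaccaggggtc
D230017M19Rik: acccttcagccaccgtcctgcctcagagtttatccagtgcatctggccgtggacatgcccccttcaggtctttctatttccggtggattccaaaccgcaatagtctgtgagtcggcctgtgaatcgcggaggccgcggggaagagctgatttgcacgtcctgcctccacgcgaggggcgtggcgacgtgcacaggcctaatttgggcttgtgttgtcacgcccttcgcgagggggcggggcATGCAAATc
Gm26232: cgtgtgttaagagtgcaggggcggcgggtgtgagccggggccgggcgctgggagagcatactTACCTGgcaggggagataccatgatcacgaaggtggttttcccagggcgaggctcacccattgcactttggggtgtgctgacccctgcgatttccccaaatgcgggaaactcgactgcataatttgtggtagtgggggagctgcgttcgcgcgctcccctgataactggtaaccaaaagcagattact
Med16: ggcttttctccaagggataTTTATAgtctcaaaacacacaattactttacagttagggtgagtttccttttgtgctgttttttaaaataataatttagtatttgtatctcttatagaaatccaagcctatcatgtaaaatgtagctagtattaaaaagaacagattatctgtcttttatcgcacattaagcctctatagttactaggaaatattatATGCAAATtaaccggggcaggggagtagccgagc

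The Alyref2 window (chr1:171503228-171503477, plus strand) lies in the peak of LOC115487699, and its octamer is 216 bp from that snRNA gene. The D230017M19Rik window (chr1:72243743-72243992, plus strand) reaches into the peak of Gm24497, with the octamer 222 bp from the gene. The Med16 window (chr10:79908939-79909188, minus strand) lies in the peak of Gm24019, a gene of the U6 length, with the octamer 223 bp and TTTATA 26 bp from that gene. The Gm26232 window (chr3:96450389-96450638, plus strand) holds LOC115489800, a gene of the U1 length, and its TACCTG covers positions 6 to 11 counted from the gene's lower coordinate. The 5′ end of U1 is the stretch known to pair with the 5′ splice site, whose usual letters include CAGGTA, letters that are also among the motifs known for ZEB1. In all, 17 promoter windows of 300 bases (250 before to 50 after a start) from 16 genes overlapped an snRNA peak. On both strands, ATGCAAAT was found in 3 of the 17 (17.6%) against 1.74% of all 32851 windows and 1.56% of the 7318 windows that overlap any consensus peak. The ZEB1 E-box CACCTG was found in 1 of the 17 (5.88%) against 20.2% of all windows and 16.3% of those in a peak, and CAGGTA in 2 (11.8%) against 12% and 7.65%. TATAAA was found in 3 (17.6%) against 13.6% and 5.64%, and in none on the strand of the named gene, against 8.32% of all windows. Windows not shown held these motifs as well. TATAAA was in that of Gtf3c6, at the peak of Rnu3a, which was called lower, and in that of C920006O11Rik, at the uncalled peak of Rn7sk. CAGGTA was in a window of Cops7a and CACCTG in that of Eif3c, at the uncalled peaks of Gm23851 and Gm25579. All of these are matches of letters in windows of neighbouring genes and are given as a description.

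Peaks at snRNA genes were wider than the other consensus peaks, with a median width of 913.5 bp against 347 bp, and 42 of the 66 overlapped the snRNA gene itself while 24 lay beside it. Their median level was 81.5 CPM (counts scaled to a common library total) against 35.5, but per kb of peak it was 91.8 CPM against 98.7 for all peaks. Within 1 kb of a protein-coding gene's start or end lay 17 (25.8%), against 29.3% of all peaks. Peaks were unevenly spread over snRNA genes of different annotated lengths. The symbols name the class of only 16 genes in the table, among them Rnu5g with 116 bases, the Rnu1 genes with 164 to 166, Rnu2-10 with 187, the Rnu3 genes with 212 to 218 and Rnu6 with 107. Length is used below to group the genes with uninformative symbols, as a description and not as a class assignment. Of genes of 116 bases, the length of Rnu5g, 7 of 9 had a peak within 1 kb. The shares were 15 of 54 at 164 to 166 bases, 10 of 22 at 187 to 191, 2 of 5 at 141, 5 of 5 at 212 to 218, and 17 of 649 (2.62%) at 102 to 107 bases. Rnu1b2 and Rnu6 had no peak within 1 kb, and no symbol names a U4 gene. Genes of 1 class are near copies of each other, and the sources used here do not say how reads that match several copies were placed, so signal may be split or shared among copies.

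ZEB1 signal at snRNA peaks was lower after eribulin at every time. Together the 66 peaks held 0.853 and 0.866% of the counts of the control libraries. The pairs at 24, 48 and 72 h held 0.502 and 0.483%, 0.424 and 0.418%, and 0.420 and 0.437%. Each treated library thus lay below both controls. At genes of 116, 164 to 166 and 187 to 191 bases, the bands that hold the named U5, U1 and U2 genes, the control share was 0.583 and 0.581%, and the pairs at 24, 48 and 72 h held 0.308 and 0.283%, 0.219 and 0.225%, and 0.221 and 0.226%. At genes of 102 to 107 bases the share was 0.108 and 0.116% in the controls and between 0.103 and 0.123% in the treated libraries. The groups thus overlapped there, but only 3 of the 20 peaks of this band overlapped their gene and the others lay beside it. In the bands of 116, 164 to 166 and 187 to 191 bases 6 of 7, 13 of 16 and 10 of 10 peaks overlapped it. Length and position are thus mixed in this comparison.

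**Figure D1:**
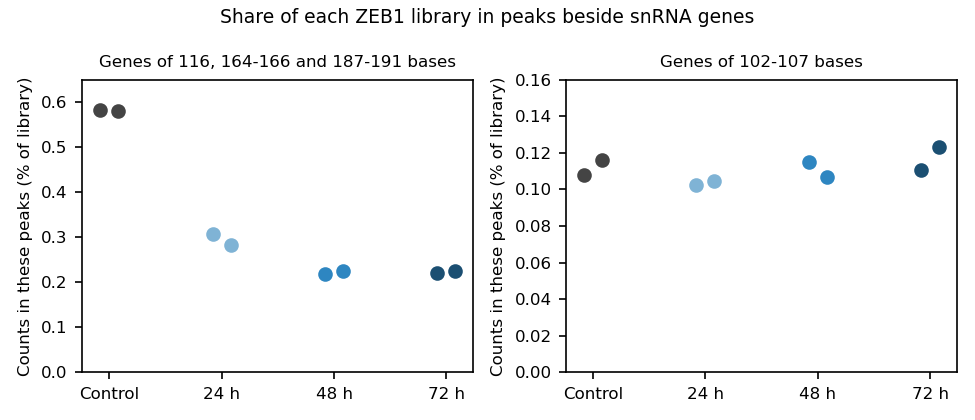
Share of each library's counts (%, vertical axis from 0) that fell in snRNA peaks, for control and 24, 48 and 72 h of eribulin, with 1 point per library. At genes of 116, 164 to 166 and 187 to 191 bases (left) the controls sit at 0.581 and 0.583% and all treated libraries at or below 0.308%. At genes of 102 to 107 bases (right), where only 3 of 20 peaks overlap their gene, controls and treated libraries overlap.

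Counts were tested with edgeR's quasi-likelihood test over all 21192 tested peaks, with calls made where the p adjusted by Benjamini and Hochberg was below 0.05. At 24 h 34 of the 61 tested snRNA peaks were lower, against 4.61% of all tested peaks, and at 48 h 39 were, against 5.41%. At 72 h 34 were lower, against 5.74%. In the mean of the 3 times 37 were lower (60.7%), against 8.53%, and 32 were lower at each of the 3 times, against 1.49%. None was higher by edgeR or DESeq2 in any of these comparisons, where 6.44, 6.09, 6.84 and 8.27% of all tested peaks were higher by edgeR. At an unadjusted p below 0.05 edgeR had 2 higher at 72 h and 0 in the other comparisons. The share of all tested peaks at that p is not given here. The median log2 fold change of the 61 was -0.70 at 24 h, -0.99 at 48 h, -0.83 at 72 h and -0.80 in the mean, and that of all tested peaks was -0.01, 0.00, 0.00 and -0.01. In 35 of the 61 both controls lay above all 6 treated libraries, as in 12.5% of all tested peaks, and in 1, at Gm23851, both lay below (12.7% of all). The comparisons with control share the same 2 control libraries. DESeq2 gave an adjusted p to 51, 51 and 54 of the 61 at 24, 48 and 72 h and to 55 in the mean. Of these it called 17, 24, 20 and 30 lower. In the mean it called 110 of all peaks lower, and its calls over all peaks at the single times are not given here.

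The 61 tested peaks include any that passed the count minimum only through the control libraries. At least 10 counts in all 8 libraries were held by 50 of them, and 35 of these 50 were lower in the mean. The share lower among all peaks that meet this same minimum is not given here, so the 35 of 50 has no background. Most of the peaks, 62 of 66, were in the control list. Of the 34 snRNA peaks that were in all 4 lists, 24 were lower in the mean (70.6%), against 644 of the 8201 consensus peaks in all 4 lists (7.85%).

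Overlap with the gene body and gene length went with the changes. Of 41 tested peaks that overlapped the snRNA gene 35 were lower in the mean, with a median log2 fold change of -1.09, and of 20 beside the gene 2 were, with a median of -0.05. All 7 tested peaks at genes of 116 bases were lower (median -1.69), as were all 9 at 187 to 191 bases (-1.39), all 5 at U3 genes of 212 to 218 bases (-1.09) and 12 of 15 at 164 to 166 bases (-0.92). Of 18 at genes of 102 to 107 bases 1 was lower (-0.05), but only 3 of these 18 overlapped their gene. Of the 37 tested peaks that overlapped a gene of another length, 7SK aside, 35 were lower. These groups were drawn with the results known and carry no test. Within 1 kb of a protein-coding gene's start or end 7 of 16 tested snRNA peaks were lower in the mean. Farther away 30 of 45 were, and this split was not tested.

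**Figure D2:**
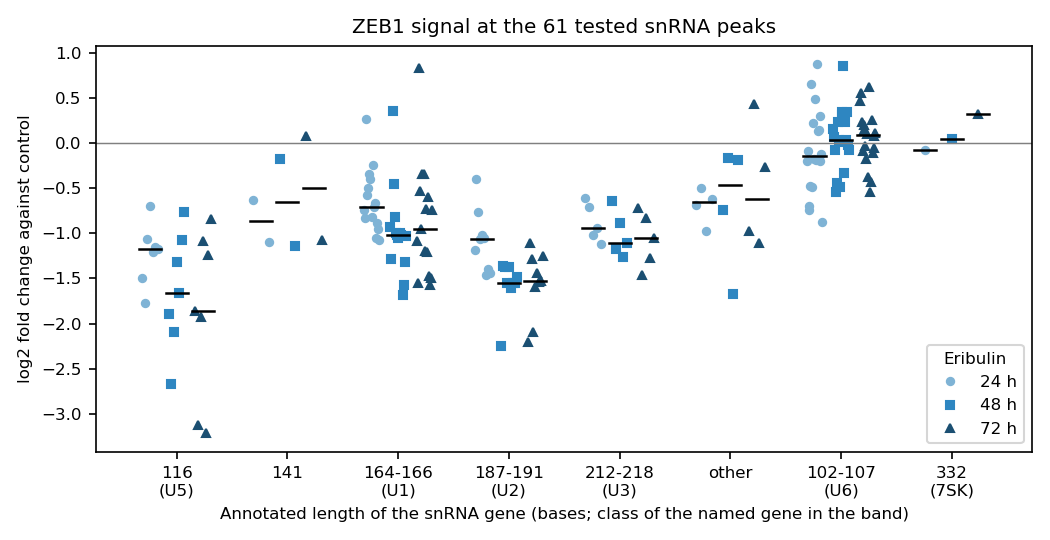
Log2 fold change against control (vertical axis) of each tested snRNA peak at 24, 48 and 72 h, by annotated length of the gene in bases, with the class of the named gene in each band in brackets; each point is a peak and each line a median. Peaks at 116 and 187 to 191 bases all lie below 0, while those at 102 to 107 bases lie on both sides of it.

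U1 genes were represented by name by Rnu1a1, Rnu1b1 and Rnu1b6. Rnu1b6 (chr3:96458702-96460468) had 374 and 346 CPM in controls, then 205 and 184 at 24 h, 116 and 125 at 48 h, 116 and 126 at 72 h. All treated libraries were below the controls and those of 48 and 72 h were below those of 24 h; the log2 fold change was -0.88, -1.57 and -1.57, and -1.34 in the mean (SE 0.114, adjusted p = 1.77e-18). Rnu1a1 (chr11:87422646-87423905) had 220 and 208 CPM in controls, then 130 and 126 at 24 h, 120 and 99.2 at 48 h, 97.1 and 104 at 72 h. Its groups did not overlap the controls either, and its mean log2 fold change was -0.92 (SE 0.132, adjusted p = 8.24e-08). Rnu1b1 had a peak too weak to test, with 9 and 10 counts in the controls and 0 to 9 in the treated libraries. Among unnamed genes of the U1 length, LOC115489800, the gene whose sequence holds TACCTG above, had 336 and 390 CPM in controls, then 174 and 180 at 24 h, 110 and 122 at 48 h, 136 and 129 at 72 h. Signal there fell by 1.40 in the mean on the log2 scale (SE 0.113, adjusted p = 5.59e-20), with no overlap between controls and treated libraries. Genes of this length showed smaller changes on chromosome 12, with 5 of 8 tested peaks lower and a median of -0.62. Elsewhere 7 of 7 were lower, with a median of -1.22. On chromosome 12 6 of the 8 overlapped their gene and elsewhere all 7 did, so chromosome and position are mixed. The difference between chromosomes was not tested.

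U2 was represented by name by Rnu2-10 (chr11:101658333-101659091), with 143 and 158 CPM in controls, then 64.8 and 49.1 at 24 h, 52.9 and 56.5 at 48 h, 62.4 and 65.9 at 72 h. The level was already at its lower value at 24 h, and the mean log2 fold change was -1.39 (SE 0.161, adjusted p = 3.38e-11). In the same stretch of chromosome 11 lay Gm24950 (-1.52), Gm23971 (-1.49) and LOC115487916 (-1.36), all called lower. The strongest peaks at genes of 187 to 191 bases were on chromosome 1, and 191 bases is the length of no named gene. Gm25360 (chr1:72225923-72228148), 1 of the 2 strongest snRNA peaks, had 566 and 514 CPM in controls, then 247 and 225 at 24 h, 99.2 and 128 at 48 h, 122 and 107 at 72 h. Its log2 fold change was -1.19 at 24 h, -2.25 at 48 h and -2.21 at 72 h, and -1.88 in the mean (SE 0.106, adjusted p = 8.40e-32). Its neighbour Gm25939 had 294 and 287 CPM in controls, then 142 and 136 at 24 h, 95.2 and 103 at 48 h, 64.7 and 72.2 at 72 h (mean -1.57, SE 0.126, adjusted p = 5.52e-20). The 72 h libraries were its lowest. Gm24497, whose peak holds the octamer of the D230017M19Rik window, fell by 1.14 (SE 0.139, adjusted p = 2.17e-10), with controls of 195 and 211 CPM and treated libraries of 64.7 to 126 CPM.

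U5 was represented by name by Rnu5g (chr9:65200683-65201788), with 148 and 128 CPM in controls, then 68.2 and 53.2 at 24 h, 96.6 and 58.2 at 48 h, 74.0 and 78.4 at 72 h. The treated libraries were all below the controls and spread most at 48 h, and the mean log2 fold change was -0.93 (SE 0.164, adjusted p = 1.56e-05). Unnamed genes of 116 bases held the largest changes of all snRNA peaks. Gm22265 (chr1:192745529-192746775) had 173 and 194 CPM in controls, then 64.8 and 46.4 at 24 h, 19.8 and 41.1 at 48 h, 20.8 and 22.0 at 72 h. Signal there was 5.73-fold lower in the mean (log2 -2.52, SE 0.177, adjusted p = 4.15e-24), at -1.77 at 24 h and -3.12 at 72 h. LOC115487699 (chr1:171501297-171503835), beside the Alyref2 window, had 514 and 619 CPM in controls, then 201 and 207 at 24 h, 161 and 147 at 48 h, 146 and 176 at 72 h. Most of this fall, -1.75 in the mean (SE 0.101, adjusted p = 6.05e-31), was present at 24 h (-1.49). Gm25099 (chr4:117189967-117191268) had 198 and 182 CPM in controls, then 95.5 and 84.6 at 24 h, 38.4 and 51.3 at 48 h, 53.2 and 43.9 at 72 h (mean -1.69, SE 0.153, adjusted p = 9.71e-17). The treated libraries were again all below the controls. Gm23287, beside it, had 2 and 0 counts at 72 h, so its fitted mean of -2.03 (SE 0.453, adjusted p = 6.54e-04) rests on few counts.

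**Figure D3:**
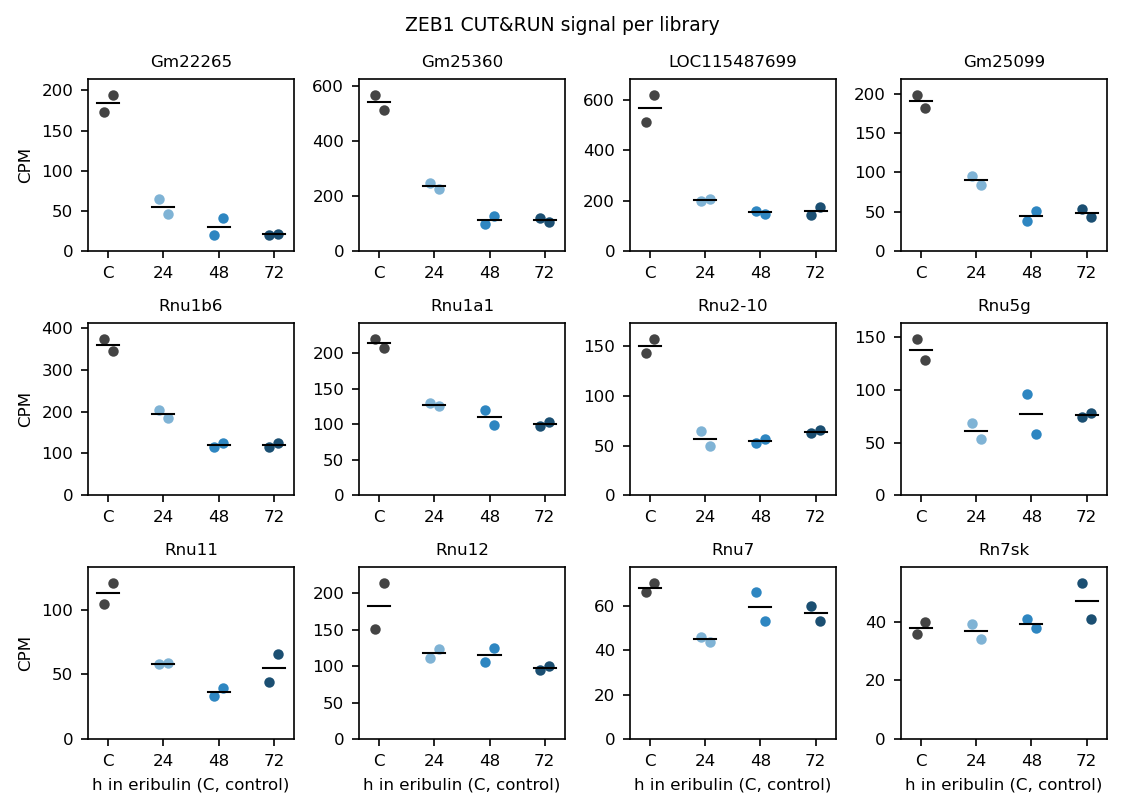
ZEB1 signal (CPM, vertical axes from 0 and on their own scale) in each library of control (C) and 24, 48 and 72 h of eribulin for 12 snRNA peaks; points are libraries and lines are means of 2. Treated libraries lie below both controls in every panel except Rnu7, where 1 library at 48 h reaches the controls, and Rn7sk, where the groups overlap.

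Genes of 141 bases gave 2 peaks, both near the neighbouring genes Gm24265 and Gm24407. The peak over them had 267 and 252 CPM in controls, then 116 and 124 at 24 h, 122 and 111 at 48 h, 143 and 94.1 at 72 h. It was lower to about the same extent at each time (-1.10, -1.14 and -1.08), with a mean of -1.10 (SE 0.126, adjusted p = 1.69e-11). The weaker peak 83 bp away did not pass the test (-0.24, adjusted p = 0.719). A peak 253 bp from Gm25541, a gene of 126 bases, did not pass either (-0.08, adjusted p = 0.882).

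The minor spliceosome genes were lower as well. Rnu11 (chr4:132269330-132270113) had 104 and 121 CPM in controls, then 58.0 and 58.7 at 24 h, 33.1 and 39.4 at 48 h, 43.9 and 65.9 at 72 h (mean -1.25, SE 0.180, adjusted p = 9.18e-08). Its peak was in the control list and in no eribulin list. Rnu12 (chr15:83149080-83150187) had 151 and 214 CPM in controls, then 111 and 124 at 24 h, 106 and 125 at 48 h, 94.8 and 100 at 72 h. Its mean log2 fold change was -0.80 (SE 0.138, adjusted p = 9.64e-06), but without control replicate 2 the value was -0.46 and the call was lost.

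The 5 peaks at U3 genes, which the table gives the biotype snRNA although U3 works in the nucleolus, were all lower. The peak shared by Rnu3b1 and Gm23137 had 338 and 350 CPM in controls, then 218 and 206 at 24 h, 148 and 159 at 48 h, 132 and 116 at 72 h (log2 -0.71, -1.17 and -1.46). The others had mean log2 fold changes of -1.16 at Rnu3b4, -1.09 at Rnu3b2, -0.91 at Rnu3b3 and -0.66 at Rnu3a. Rnu3a was the weakest of the calls at named genes (adjusted p = 0.00105) and was not called by DESeq2 (adjusted p = 0.150) or without control replicate 2.

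U7 was not called. The peak over Rnu7 (chr6:124740802-124741583) had 66.0 and 70.3 CPM in controls, then 46.0 and 43.7 at 24 h, 66.2 and 53.0 at 48 h, 60.1 and 53.3 at 72 h (mean -0.36, SE 0.204, adjusted p = 0.231). The 24 h libraries were the lowest and 1 of the 2 at 48 h reached the controls. A smaller Rnu7 peak, with 10 and 11 counts in the controls and 4 to 7 in the treated libraries, was not tested. The Rnu7 peak also covers the promoter window of Grcc10. Some called peaks overlapped a protein-coding gene's start or end as well. These were at Rnu12 (Poldip3), Gm24265 with Gm24407 (Sirt4), LOC115487916 (Rdm1), LOC115487699 (Alyref2) and Gm26243 (Tmem259).

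7SK had a weak peak that was not called. Rn7sk (chr9:78175345-78176014) had 35.8 and 39.8 CPM in controls, then 39.2 and 34.1 at 24 h, 41.0 and 37.6 at 48 h, 53.2 and 40.8 at 72 h. The groups overlapped, and the log2 fold change was 0.10 in the mean (SE 0.253, adjusted p = 0.832), with -0.07, 0.04 and 0.32 at the single times. Its standard error is larger than those of the strong snRNA peaks, and this p does not show that the level was equal. The peaks of Rmrp (0.05, adjusted p = 0.889) and Rpph1 (0.29, adjusted p = 0.581), other genes with polymerase III promoters of this kind, were not called either.

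Genes of the U6 length were mostly represented by peaks beside them. The 3 peaks that overlapped such a gene had mean log2 fold changes of -0.18 at Gm24019, -0.17 at LOC115488100 with Gm23296, and -0.28 at Gm25064, and none was called. Gm24019, which has the octamer and TTTATA of the Med16 window, had 57.8 and 59.6 CPM in controls, then 47.8 and 27.3 at 24 h, 58.2 and 53.0 at 48 h, 64.7 and 75.3 at 72 h. Only the 24 h libraries were both below the controls there. The 1 call of this length was a peak 236 bp from Gm26243 (-0.46, adjusted p = 0.0245), with 113 and 150 CPM in the controls and between 77.8 and 132 in the treated libraries. DESeq2 did not call it (adjusted p = 0.410). The other peaks of Gm26243 were 1 not called (-0.26) and 2 not tested. The highest mean log2 fold changes of all snRNA peaks with at least the median level were at genes of this length, 0.25 at Gm23205, 0.21 at Gm23851, 0.17 at Gm25794, 0.14 at Gm24182 and 0.14 at LOC115488883, and none passed the test.

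The snRNA peaks fell into 33 clusters when peaks within 50 kb of each other were joined, so they are not 66 separate places. In 5 clusters of 3 or more peaks every tested peak was lower, namely 4 of 4 on chromosome 1 (Gm25360 to Gm25939), 4 of 4 on chromosome 3 (LOC115489800 to Gm22614), 3 of 3 on chromosome 4 (Gm25099 to Gm23287), and on chromosome 11 6 of 6 (Rnu1a1 to Rnu3b2) and 4 of 4 (LOC115487916 to Rnu2-10). On chromosome 12 5 of 8 were lower and on chromosome 10 1 of 2, both at Gm26243. Few other peaks lay within 10 kb of these clusters. There was 1 on chromosome 1 (-0.44), 1 by Rnu2-10 (0.14) and 1 on chromosome 10 (0.27), none of them called, and of 2 on chromosome 3 (-2.28 and -0.36) 1 was lower.

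**Figure D4:**
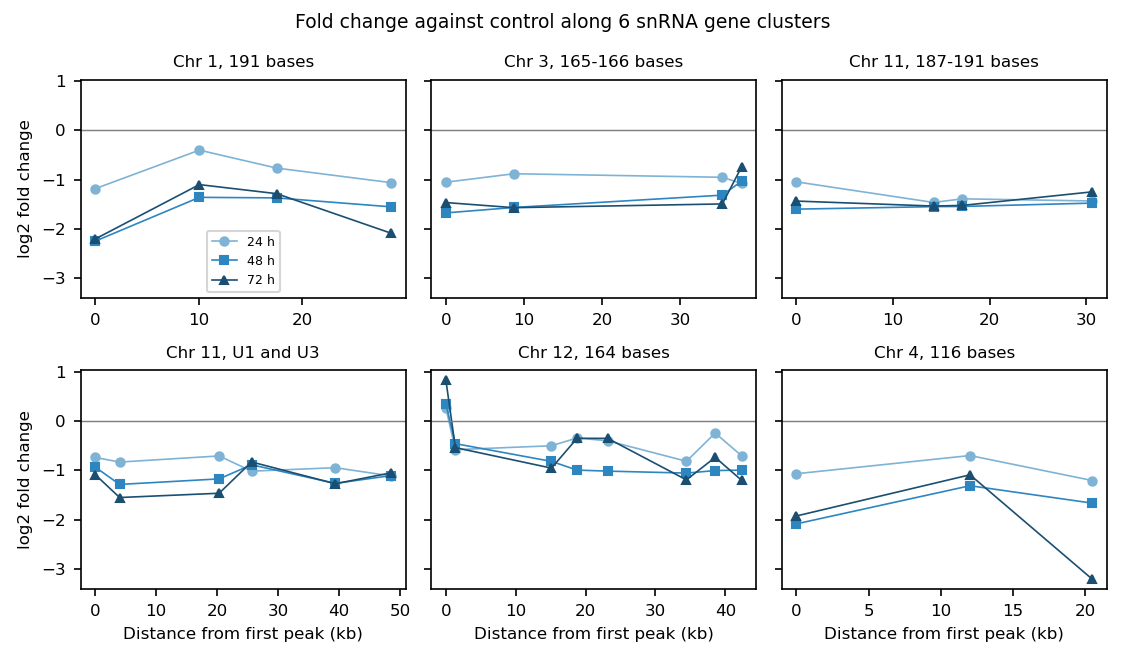
Log2 fold change against control (vertical axis) of the tested peaks of 6 snRNA gene clusters, by distance in kb from the first tested peak, with symbols and shades for 24, 48 and 72 h. All points lie below 0 in each cluster except that on chromosome 12, where the first peak is above 0.

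A median change of -0.70 was present at 24 h, and some peaks fell further by 48 h. Between 24 and 48 h 5 of the 61 were lower and none higher (background 0.533 and 0.222%), namely Gm25360 (-1.07), Gm25099 (-1.02), Gm23472 (-0.96), Rnu1b6 (-0.69) and LOC115489800 (-0.62). At an unadjusted p below 0.05 19 were lower and 3 higher, with no share of all tested peaks given at that p. DESeq2 called none. All but Gm23472 are among the 27 tested peaks that the rule for named peaks takes, and among those 27 the count fell from 4 to 1 without 24 h replicate 1 or without 48 h replicate 1. Between 48 and 72 h edgeR and DESeq2 called none (background 0.00944% lower and 0.0283% higher). At an unadjusted p below 0.05 3 were lower and 2 higher, again with no share of all tested peaks given. Between 24 and 72 h 7 were lower and 3 higher (background 2.39 and 2.32%), and DESeq2 called 1 of these, Gm25360. This count fell to 4 and 6 without 24 h replicate 1 or 2 and to 3 and 2 without 72 h replicate 1 or 2.

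The eribulin peak lists held fewer of the snRNA peaks than the control list, as they did of all consensus peaks. Of the 66 peaks 62 overlapped a peak in the control list (93.9%, 95% Wilson interval 85.4 to 97.6), 50 in the 24 h list (75.8%, 64.2 to 84.5), 44 in the 48 h list (66.7%, 54.7 to 76.8) and 46 in the 72 h list (69.7%, 57.8 to 79.5). These intervals cover counting error only and there is 1 list per group, and membership is part of how the peaks were chosen. Of all 23623 consensus peaks 78.7, 63.0, 60.2 and 51.6% were in the control, 24, 48 and 72 h lists. The authors' deposited lists give a fold over IgG, and each consensus peak was given the highest fold of the list peaks that overlap it. For snRNA peaks its median was 11.5 in the control list and 8.14, 9.63 and 6.30 at 24, 48 and 72 h. For all consensus peaks that overlap each list it was 7.14, 7.43, 8.92 and 6.82.

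Among peaks near but not at snRNA genes, the shares called were no larger than those of all tested peaks (8.53% lower and 8.27% higher). Of 179 tested peaks 1 to 10 kb from an snRNA gene 13 were lower in the mean (7.26%) and 14 higher (7.82%), with a median of 0.06. Of 810 at 10 to 50 kb 50 were lower (6.17%) and 65 higher (8.02%), with a median of 0.02. At the distance limit itself the snRNA peaks at 815 and 853 bp had log2 fold changes of 0.21 and 0.48. The 11 tested of the 14 peaks just beyond 1 kb ran from -0.56 to 1.75. Of these, the peaks nearest Gm25137 (0.83), Gm22929 (0.53) and LOC115488883 (1.75) were called higher, and the others were not called. The absence of higher calls in the mean thus holds for the 1 kb window and for one of 200 bp (0 higher), but not for one of 5 kb (6 higher). Other peaks at least as wide as the median snRNA peak were lower in 148 of 946 cases and higher in 97 (median -0.07). Histone genes, whose mRNAs are processed with U7, were the comparison group with the next largest share lower. There 21 of 61 peaks were lower (34.4%) and 1 higher (1.64%), with a median of -0.38. Of 55 tested tRNA peaks 6 were lower (10.9%) and 2 higher (3.64%), with a median of -0.12.

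Peaks at genes for the proteins that make, process and use snRNAs were called higher at a share near that of all tested peaks. Of 85 tested peaks near such genes 9 were higher in the mean (10.6%, against 8.27% of all), with a median of 0.12. In the mean 1 was lower (1.18%, against 8.53%), at the Sm protein gene Snrpd2 (-0.43). At 24 h 4 were lower (4.71%, against 4.61% of all) and 6 higher (7.06%, against 6.44%). At 48 h 0 were lower (against 5.41%) and 10 higher (11.8%, against 6.09%). At 72 h 0 were lower (against 5.74%) and 9 higher (10.6%, against 6.84%). The higher ones in the mean included 2 peaks at Sf3a1 (1.84, SE 0.369, adjusted p = 1.5e-04, and 1.02) and 1 at Sf3b2 (1.55), both of the U2 particle. Peaks at Snapc4 (1.36) and Snapc2 (1.16), subunits of the promoter complex SNAPc, were higher, as were those at Ints12 (1.39) and Ints1 (0.96) of Integrator, which cuts the 3′ ends of snRNA transcripts. The remaining 2 were at Lsm4 (1.30), of the ring that binds U6, and Snrnp25 (0.69), of the minor spliceosome. Another tested peak was not called at Snapc4 (0.66), Snapc2 (0.13), Sf3b2 (-0.21) and Lsm4 (-0.21). At Sf3b2 and Lsm4 the uncalled peak was the stronger, with 88.0 to 107 CPM in controls. At Snapc2 the uncalled peak had 35.8 and 26.0 CPM in controls and the called one 19.3 and 21.4. Most of the higher calls were at weak peaks. The called peaks at Sf3a1, Sf3b2, Snapc4, Snapc2, Ints12, Ints1 and Lsm4 had 9.17 to 24.8 CPM in controls. At Snrnp25 the controls had 33.0 and 47.4 CPM. The median level of all tested peaks over the 8 libraries was 35.5 CPM.

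**Figure D5:**
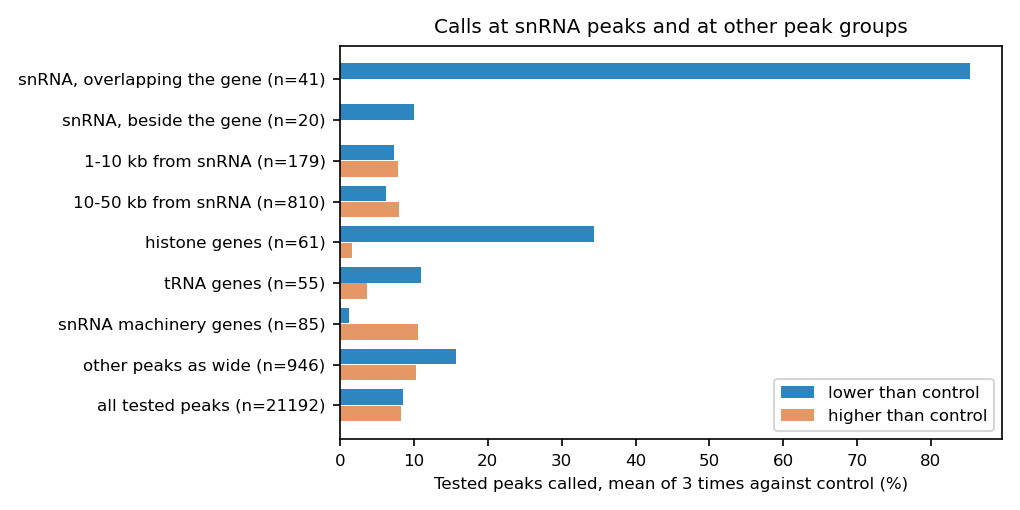
Percent of tested peaks called lower or higher than control in the mean of the 3 times (horizontal axis from 0) for snRNA peaks, peaks at other distances or gene groups, and all tested peaks, with the number tested in brackets. Among snRNA peaks that overlap the gene 85.4% are lower and none higher, against 8.53% and 8.27% of all tested peaks.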

How the data were processed

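Counts are reads per consensus peak as deposited by the authors, with no scaling, for 8 ZEB1 libraries; the peak lists, 1 per group, were called with the tools named in the submitters' processing notes (cutadapt 2.4, Bowtie2 2.2.6, MACS2 2.1.1, bedtools 2.30.0, featureCounts) on GRCm38. Per the deposited lists, each peak has a fold over IgG (a ratio) and −log10 p and q values. The setting of each step and the handling of replicate 2 in the lists are not given in the sources used here. Coverage tracks were not analysed here. The labels call the input Tn5-fragmented DNA, while the protocol they give is CUT&RUN.

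From the counts, edgeR 4.0.16 (R 4.3.3; filterByExpr, TMM factors 0.994 to 1.01, robust quasi-likelihood fit, 1 mean per group, 4 residual degrees of freedom, BCV 0.0341) tested 21192 peaks (89.7%), with Benjamini-Hochberg adjustment over all of them. CPM uses TMM-scaled totals, so a change shared by all peaks cannot be seen. The tests were checked on simulated counts for 72 h against control over 20430 peaks. There 51% of 2-fold and 91% of 4-fold changes were recovered and 0.0198% of unchanged peaks were called. Changes were placed only in peaks at or above the median level, with 1 common spread for all peaks. The recovery shares therefore do not cover weaker peaks. DESeq2 1.42.0 and the other alternatives are described at the end.

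Genes came from the GRCm38.p6 table, which gives no strand, and classes from its symbols alone. The named peaks are those at 7SK and at every gene with an Rnu symbol, and, among tested snRNA peaks with a mean level of at least 35.5 CPM, the median of all tested peaks, the 10 lowest and 5 highest mean log2 fold changes; Gm23472, Gm24497, Gm23287, Gm24019, Gm26243, Gm25064, the 141-base genes and the step calls were named after their values were seen. The members, gene lists (machinery, histone, tRNA, polymerase III) and groups by length were chosen with earlier results of these data known.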

Additional observations from a re-analysis of the deposited data

Results flagged for a closer look

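At 10 snRNA peaks the change differed between the times when 72 h was compared with 24 h directly in edgeR (adjusted p over all tested peaks, 2 libraries against 2). The log2 difference, 72 h minus 24 h, was -1.35 at Gm22265 (adjusted p = 0.0183), -1.03 at Gm25939 (0.00163), -1.02 at Gm25360 (9.0e-05), -0.86 at Gm25099 (0.0340), -0.76 at the peak of Rnu3b1 and Gm23137 (0.00378), -0.72 at Gm22068 (0.0495) and -0.69 at Rnu1b6 (0.0118). It was 0.92 at Gm24019 (0.0424), 0.81 at Gm23205 (0.0431) and 0.65 at Gm26243 (0.0453). The 7 lower ones are at genes of 116, 164 to 166, 187 to 191 or 212 to 218 bases and the 3 higher ones are at or near genes of 102 to 107 bases. The libraries at 72 h were the 2 smallest of the treated ones, and with all libraries thinned to the same total 3 snRNA peaks were called between these times. DESeq2 called only Gm25360 (adjusted p = 0.0481) of these.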

How the results depend on the processing

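In the mean of the 3 times the number of snRNA peaks lower stayed within 1.5 times of 37 under every alternative run but 1, and no named peak changed direction. With the replicate block (the replicate number as a term) 34, 39, 34 and 36 were lower at 24, 48 and 72 h and in the mean, 0 were higher and 10 differed between 72 and 24 h, so the block changed no call of a named peak. Same-numbered libraries showed no shared deviation, since differences between replicates correlated at -0.0302 to 0.001 over 6 pairs of groups. DESeq2 called 17, 24 and 20 lower at 24, 48 and 72 h, of 51, 51 and 54 snRNA peaks with an adjusted p. In the mean 6 snRNA peaks had no adjusted p. Between 72 and 24 h DESeq2 called 1 of 45 with an adjusted p. Leaving out 1 library gave 24 to 35 lower at 24 h, 32 to 40 at 48 h, 27 to 35 at 72 h, 31 to 41 in the mean, and 2 to 11 called between 72 and 24 h. Without control replicate 2 the calls among all peaks fell from 1807 lower to 351, and those at Rnu3a (-0.61) and Rnu12 (-0.46) were lost. With libraries thinned to 326944 counts 913 of all peaks were lower and the call at Rnu3a (-0.49) was lost. Between 72 and 24 h 5 were called with summed pairs and 3 with thinned libraries. Among the 27 tested named peaks 7 were called between 72 and 24 h (1 with DESeq2, 3 thinned, 2 to 7 with 1 library left out) and 4 between 48 and 24 h (0 with DESeq2, 1 thinned, 1 to 5 with 1 library left out). Between 72 and 48 h 0 were called, and 0 under each alternative run. Only peaks in all 4 lists, a choice made after seeing the data, gave 24, 21 and 24 lower at 48 h, 72 h and in the mean, and 5 between 72 and 24 h, by construction from 34 peaks. With a 5 kb window, which takes in more peaks, 6 were higher in the mean, where the 1 kb window gave 0. With at least 50% of a peak covered, 29, 24 and 27 peaks were in the 24, 48 and 72 h lists, and with a −log10 q of at least 5, 27 in the 72 h list. The control list counts and the shares of all consensus peaks under these 2 rules are not given here, so these counts have no background. The cause of the other differences was not tested. Depth limits the weak peaks: 5 of 66 were not tested.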
